A study of Homo sapiens with 9 samples.

Results

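Fibronectin, collagens, laminins and proteoglycans were followed in SKOV-3 cells grown on soft, intermediate and stiff hydrogels. A list of 48 genes was written by name, with earlier results of these data known. Rows with these symbols were taken from the deposited count table of 36343 genes. All 48 genes were found, and 45 had enough counts to be tested. SKOV-3 cells are an established line from a human ovarian adenocarcinoma, with extra copies of ERBB2. The cells were seeded in dishes coated with hydrogel of 0.5, 4 or 25 kPa and kept there for 3 days, and poly(A) RNA was sequenced. The study describes its gels as polyacrylamide coated with collagen. All libraries came from the same line, with no drug or genetic change in any group, and the groups differed in gel stiffness alone as far as the labels say. There were 3 libraries of the 0.5 kPa gel (numbered 1, 2 and 3), 3 of the 4 kPa gel (1, 2 and 3) and 3 of the 25 kPa gel (2, 3 and 4). The study compared the gels to ask how substrate stiffness changes the gene expression of these cells.

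The extracellular matrix is built from a small number of protein families. Collagens are trimers that form fibrils, sheets or anchoring threads, and fibronectin is a secreted dimer that cells pull into fibers through integrins. Laminins and type IV collagen make up the basement membrane, where nidogens and perlecan link the networks. Proteoglycans carry sulfated sugar chains that bind growth factors, either in the matrix or at the cell surface, and hyaluronan is a free sugar polymer held by the receptor CD44. In the peritoneal cavity ovarian cancer cells attach to mesothelial surfaces and the matrix beneath them through fibronectin, collagens and hyaluronan.

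Libraries held between 19609740 and 21033433 counts, and depth was similar on all gels. Levels are given in CPM, for which the counts of a library were divided by its TMM-scaled total, and in FPKM where genes are compared with each other, since FPKM also divides by gene length. A count of 3, taken as the floor, was worth 0.144 to 0.152 CPM. A gene was called when edgeR's quasi-likelihood test, adjusted by the Benjamini-Hochberg method over all 16335 genes tested, gave an adjusted p under 0.05. In every log2 fold change the stiffer gel is subtracted from the softer one, with the standard error (SE) beside it, and errors of levels are SD with n = 3. No source states whether libraries of the same gel were grown as separate cultures, so the p-values cover the spread among these libraries alone, and that spread may be technical. RNA was pooled from all cells of a dish, and fewer cells with a transcript cannot be told apart from less transcript per cell. All 11 epithelial markers of the line were present and summed to 5417 to 5727 CPM on 0.5 kPa, 5039 to 5796 CPM on 4 kPa and 4950 to 5119 CPM on 25 kPa. Between 0.5 and 25 kPa 2 of them were called, in opposite directions. ERBB2 was higher on 0.5 kPa, at 3906 to 4293 CPM on 0.5 kPa, 3100 to 3943 CPM on 4 kPa and 2921 to 3198 CPM on 25 kPa. The keratin KRT7 was lower on 0.5 kPa than on either stiffer gel, at 222 to 261 CPM on 0.5 kPa, 488 to 604 CPM on 4 kPa and 616 to 751 CPM on 25 kPa. Of the markers of other cell types, FAP (fibroblasts) had at most 3 counts in any library, and no leukocyte marker of 4 passed the count filter, with CD3E at 0 in all libraries. The 7 fibroblast markers that are not on the matrix list summed to 581 to 897 CPM on 0.5 kPa, 678 to 715 CPM on 4 kPa and 628 to 770 CPM on 25 kPa. Nearly all of this was S100A4, at 572 to 889 CPM on 0.5 kPa, 669 to 706 CPM on 4 kPa and 618 to 760 CPM on 25 kPa. None of the others was above 5.03 CPM in any library. POSTN was called higher and PDGFRB called lower on 0.5 kPa than on 25 kPa. The 5 mesothelial markers summed to 31.5 to 39.8 CPM on 0.5 kPa, 40.1 to 41.9 CPM on 4 kPa and 46.7 to 47.2 CPM on 25 kPa. Of these, UPK3B was called lower on 0.5 kPa than on either stiffer gel. The 4 endothelial markers summed to at most 2.91 CPM, with PECAM1 called higher and VWF called lower on 0.5 kPa than on 25 kPa. A list of 6 markers covered the breast cancer line MCF-7, which appears elsewhere in the study. They summed to 308 to 336 CPM on 0.5 kPa, 245 to 274 CPM on 4 kPa and 216 to 234 CPM on 25 kPa. Most of this was CA12 (mean 190 CPM over all libraries) and ESR1 (73.4 CPM), with GREB1 at 5.9 CPM and PGR at 0.871 CPM. TFF1 had no more than 2 counts and GATA3 no more than 5. ESR1, GREB1 and CA12 were called higher on 0.5 kPa than on 25 kPa. CA12 was also called higher on 0.5 kPa than on 4 kPa, and PGR was not called in any comparison. The part of these markers in the results was not tested. The 4 kPa library 3 stood apart from its 4 kPa partners (chi-square per degree of freedom 19.2 and 21.8, against 2.87 between the partners). Results that change without this library are given both ways. The 0.5 kPa library 3 also stood apart from its partners (14.3 and 11.7, against 2.98 between them). On 25 kPa the values of library 2 against libraries 3 and 4 were 10.8 and 5.81, against 3.53 between those.

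Promoter sequence of 3 of the changed genes is shown because the direction and the step of their change differed. FN1 was higher on the softest gel, THBS1 was lower there, and COL7A1 differed between 4 and 25 kPa as well. The stretches are from the RefSeq promoter table (build GRCh38.p14), 5′ to 3′ on the strand of the gene, at chr2:215436173-215436318 (FN1, minus strand), chr15:39580829-39581078 (THBS1, plus strand) and chr3:48595330-48595579 (COL7A1, minus strand). They begin 250 bases before the RefSeq start. For FN1 the stretch stops 105 bases before it, where a longer first exon of GENCODE begins. Capitals mark GGGCGG, the letters bound by SP1 factors, and GGAATG, the letters bound by TEAD factors, on either strand.
FN1: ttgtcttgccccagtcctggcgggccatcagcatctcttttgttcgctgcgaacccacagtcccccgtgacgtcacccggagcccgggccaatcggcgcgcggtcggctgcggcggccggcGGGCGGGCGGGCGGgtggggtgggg
THBS1: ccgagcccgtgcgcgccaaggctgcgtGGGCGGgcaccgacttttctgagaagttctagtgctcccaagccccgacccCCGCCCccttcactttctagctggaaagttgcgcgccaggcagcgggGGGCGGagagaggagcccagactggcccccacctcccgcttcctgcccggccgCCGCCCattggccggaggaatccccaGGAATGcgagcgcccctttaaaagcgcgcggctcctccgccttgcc
COL7A1: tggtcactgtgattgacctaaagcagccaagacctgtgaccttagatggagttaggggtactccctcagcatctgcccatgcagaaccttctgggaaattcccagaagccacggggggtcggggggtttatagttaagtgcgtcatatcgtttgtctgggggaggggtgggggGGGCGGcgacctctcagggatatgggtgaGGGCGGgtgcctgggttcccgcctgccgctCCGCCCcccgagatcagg

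The printed stretch of FN1 held 3 matches to GGGCGG that overlap each other, that of THBS1 held 4, and that of COL7A1 held 3. GGAATG was found once, in THBS1. Over the full RefSeq windows (250 bases before to 50 after the start), 36 of the 48 genes were matched by symbol. GGGCGG was in 29 of these 36 and in 45% of all 35116 windows. GGAATG was in 4 of 36 members and 14% of all windows. Among the 36 were 5 genes called higher and 3 called lower on 0.5 kPa than on 25 kPa, and the other called genes had no window. The AP-1 letters TGANTCA were in 2 of 36 members and 7.71% of all windows, and in no window of these called genes. The SMAD letters CAGACA were in 8 of 36 members and 16.9% of all windows, COL7A1 among them. TATAAA was in 4 of 36 members and 11.5% of all windows, and COL7A1, COL17A1 and COL6A2 held it. All of these letters were searched on either strand, so that TTTATA in the printed stretch of COL7A1 counts as TATAAA. These matches describe the letters in the windows and no binding was measured.

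The 48 genes together took 0.984 to 1.31% of all counts in a library. Mean FPKM over the 9 libraries was at least 1 for 36 members, at least 10 for 24 and at least 50 for 10. The highest levels per length were those of THBS1 (217 FPKM), a matricellular glycoprotein that regulates adhesion and activates latent TGF-beta, and FN1 (107 FPKM). COL18A1, a basement membrane collagen whose end is cleaved to endostatin, followed at 99.6 FPKM. The cell surface proteoglycan SDC4 (84.0 FPKM), the heparan sulfate proteoglycan agrin (AGRN, 67.5 FPKM) and the fibril-associated collagen COL12A1 (65.9 FPKM) were also among the highest. Type I collagen, the main fibrillar collagen of connective tissue, was low, with COL1A1 at 3.84 FPKM and COL1A2 at 0.974 FPKM. Another 11 members were under 1 FPKM, among them TNC, COL3A1, COL6A3, NID1 and HAS2. COL4A6 and BGN had at most 4 counts and DCN at most 3 counts in any library, and these 3 genes were not tested.

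**Figure D1:**
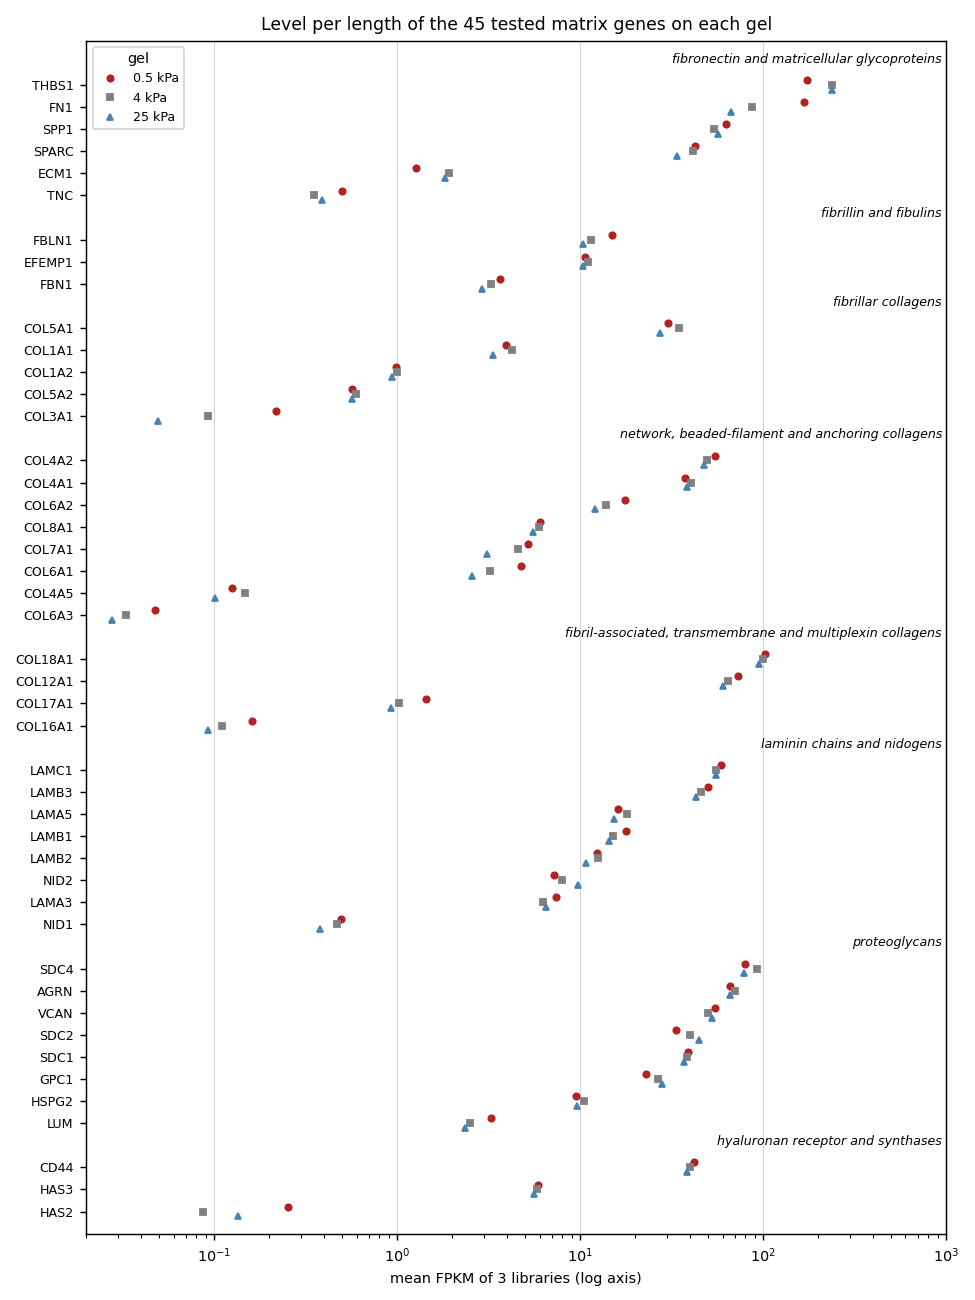
Mean FPKM of 3 libraries on a log axis for each of the 45 tested genes, grouped by role, with circles for 0.5 kPa, squares for 4 kPa and triangles for 25 kPa. THBS1 and FN1 have the highest means over all libraries (217 and 107 FPKM), and COL6A3 the lowest (0.0361 FPKM).

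Between the softest and the stiffest gel, 12 of the 45 tested genes were called (26.7%), against 6.69% of all genes tested. Of these, 8 were higher on 0.5 kPa (FN1, COL3A1, COL6A1, COL7A1, COL17A1, COL6A2, FBLN1 and LUM), against 3.06% of all genes. The other 4 were lower on 0.5 kPa (THBS1, NID2, SDC2 and GPC1), against 3.62% of all genes. The list was chosen with earlier results of these data known, so the shares above are not a test of it. The median log2 fold change was 0.14 over the 45 genes and -0.00 over all genes tested, and 34 of the 45 had a value above 0, against 8167 of all 16335 genes. The libraries of both gels did not overlap for 18 of the 45 genes, against 30.3% of all genes. FN1, COL3A1, FBLN1, COL6A1, COL7A1 and SDC2 were called whichever of the 9 libraries was left out. The other 6 lost the call without at least 1 library, as given beside each, and the count was 7 without 0.5 kPa library 2 (2.79% of all genes called), 6 without 25 kPa library 4 (2.2% of all genes) and 15 without 4 kPa library 3 (11.8% of all genes). The share of all genes called thus moved in the same direction as the count of members.

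**Figure D2:**
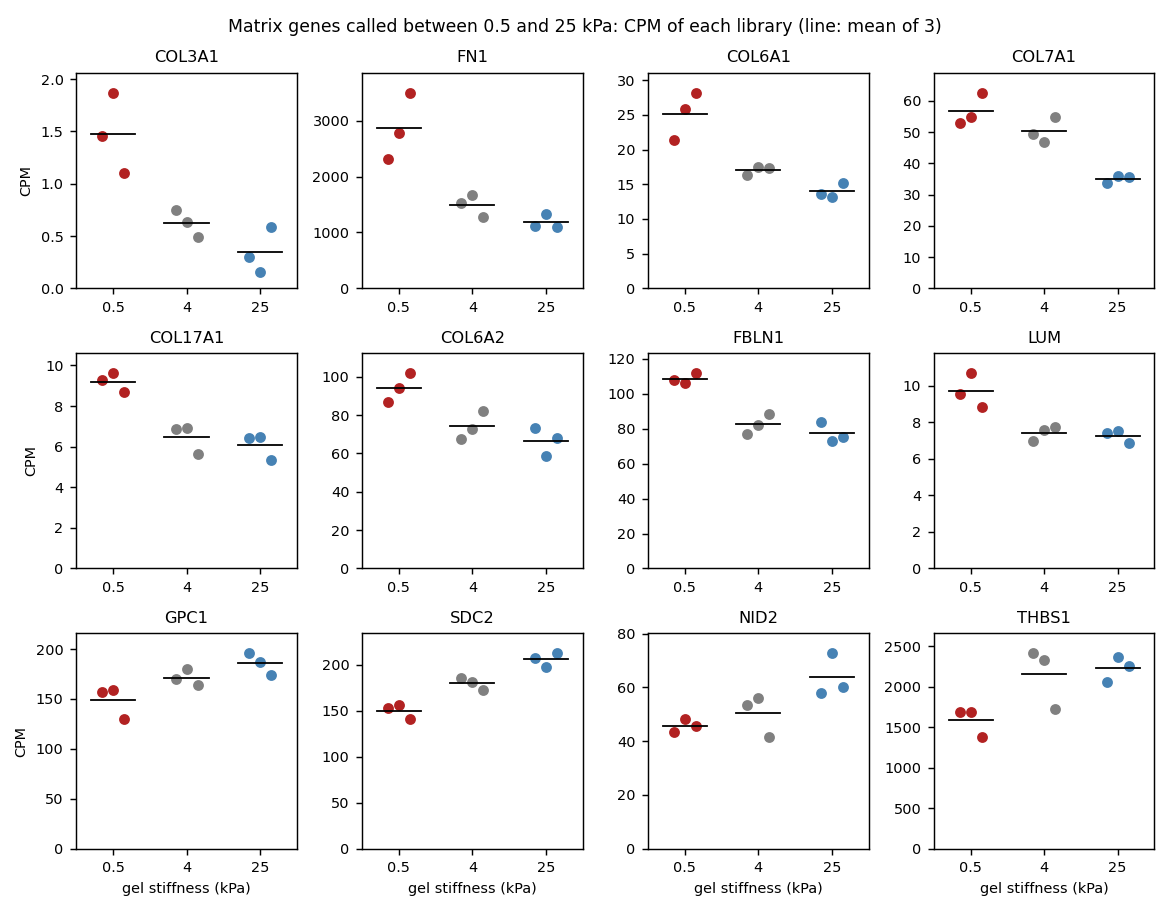
CPM of each library for the 12 genes called between 0.5 and 25 kPa, with gels from 0.5 to 25 kPa on the horizontal axis, points for single libraries and a line for the mean of 3. No library of 0.5 kPa overlaps with a library of 25 kPa in any of the 12 genes, and the 4 kPa mean lies between the other means in each.

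**Figure D3:**
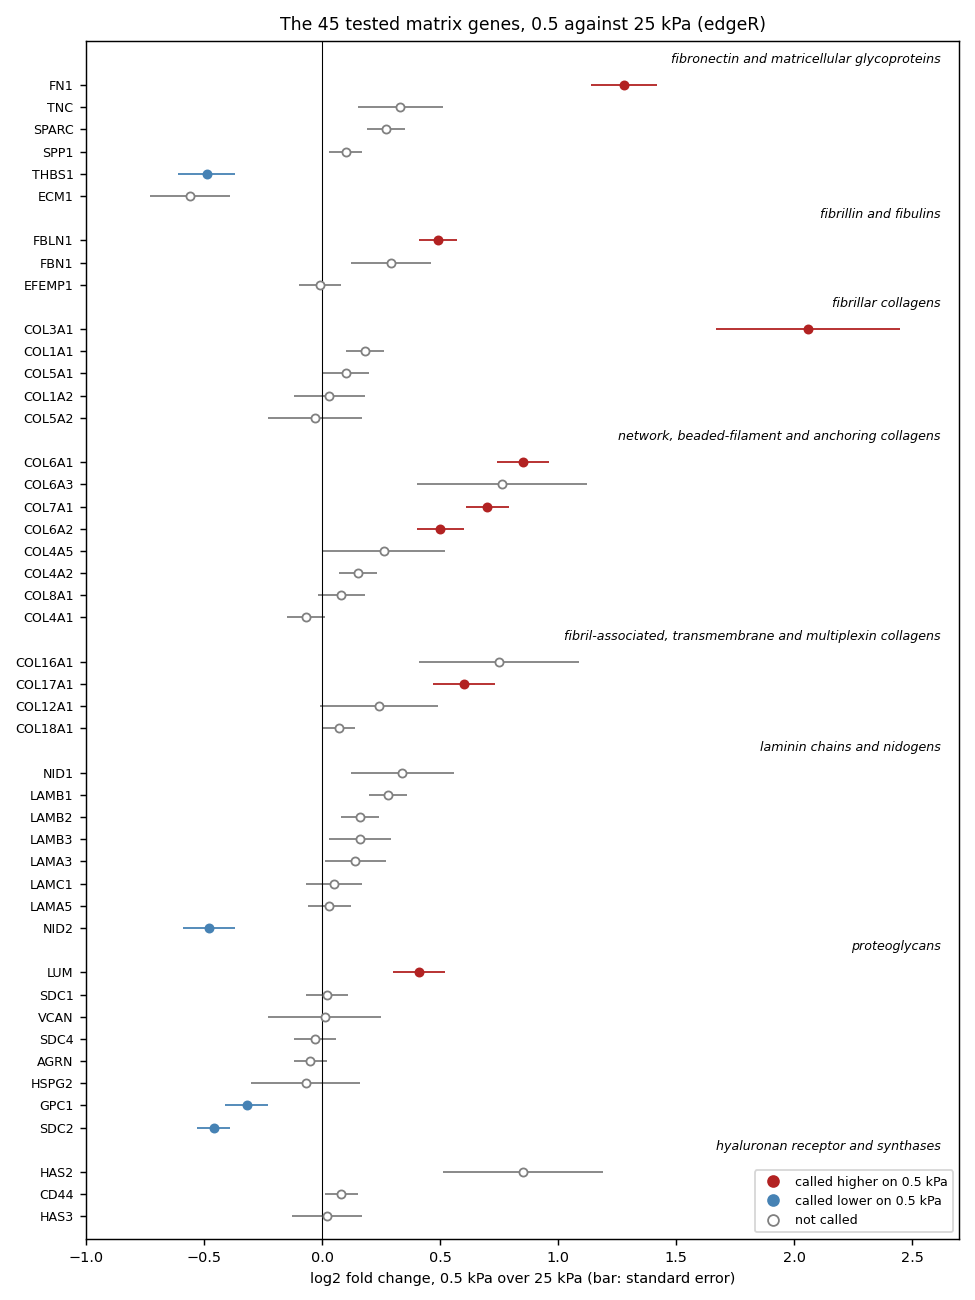
Log2 fold change of the 45 tested genes on 0.5 kPa over 25 kPa, by role, with bars for the standard error and filled points for called genes. FN1 (1.28) and COL3A1 (2.06) are the only genes above 1, and of the called genes SDC2, NID2 and THBS1 are the lowest, between -0.46 and -0.49.

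Fibronectin and the matricellular glycoproteins held the most abundant members and the largest change in CPM. FN1 (ENSG00000115414, chromosome 2 from 215360440 to 215436172 of hg38) was at 2316, 2789 and 3502 CPM on 0.5 kPa, 1519, 1665 and 1278 CPM on 4 kPa, and 1123, 1322 and 1091 CPM on 25 kPa. Every 0.5 kPa library was above every library of the stiffer gels, and the 4 and 25 kPa libraries overlapped. The level of FN1 was 2.43-fold higher on 0.5 kPa than on 25 kPa (log2 fold change 1.28, SE 0.14, adjusted p = 0.00022 in edgeR). FN1 was also higher on 0.5 kPa than on 4 kPa (0.95, SE 0.14, adjusted p = 0.0034), and 4 and 25 kPa differed by 0.34 (SE 0.14, adjusted p = 0.29). The highest value of FN1 was that of 0.5 kPa library 3. Without this library the log2 fold change was 1.12 against 25 kPa and 0.78 against 4 kPa, and both were still called. FN1 took 20.2, 22.1 and 27.1% of the counts of the 48 genes on 0.5 kPa, 12.6, 13.7 and 13.1% on 4 kPa, and 10.9, 11.4 and 10.2% on 25 kPa. Its share on the softest gel was thus the largest of any gel, with no overlap.

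THBS1 (ENSG00000137801, chromosome 15 from 39581079 to 39599466) was at 1688, 1680 and 1379 CPM on 0.5 kPa, 2414, 2332 and 1727 CPM on 4 kPa, and 2058, 2361 and 2256 CPM on 25 kPa. All 0.5 kPa libraries lay below all others, and the lowest 4 kPa value was that of library 3. THBS1 fell by 0.49 on the log2 scale on 0.5 kPa against 25 kPa (SE 0.12, adjusted p = 0.03 in edgeR). The call was lost without any single library of 0.5 or 25 kPa (adjusted p = 0.052 to 0.12). Against 4 kPa the log2 fold change was -0.45 (adjusted p = 0.086), and without 4 kPa library 3 it was called (adjusted p = 0.0024). The ratio of FN1 to THBS1 in FPKM was 0.726, 0.878 and 1.34 on 0.5 kPa, 0.333, 0.378 and 0.391 on 4 kPa, and 0.289, 0.296 and 0.256 on 25 kPa. FN1 thus exceeded THBS1 per length in 1 library only, 0.5 kPa library 3. With 3 libraries against 3, an exact permutation test of such a ratio cannot go below p = 0.10, and none was run.

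Of the other matricellular genes none was called in any comparison. SPP1 (osteopontin, a secreted integrin ligand) was at 148, 148 and 140 CPM on 0.5 kPa, 122, 121 and 129 CPM on 4 kPa, and 141, 131 and 133 CPM on 25 kPa. The 4 kPa libraries of SPP1 were the lowest without overlap, with a log2 fold change of 0.23 for 0.5 against 4 kPa (SE 0.07, adjusted p = 0.1 in edgeR). SPARC, a collagen-binding glycoprotein, had no overlap between 0.5 and 25 kPa (203 ± 18.6 CPM and 168 ± 5.05 CPM, log2 fold change 0.27, adjusted p = 0.072), and without 4 kPa library 3 (adjusted p = 0.025) or 0.5 kPa library 3 (adjusted p = 0.027) it was called. ECM1, a secreted glycoprotein that binds perlecan, averaged 4.25 ± 1.01 CPM on 0.5 kPa and 6.25 ± 0.696 CPM on 25 kPa (-0.56, adjusted p = 0.065). Without 4 kPa library 3 its adjusted p was 0.04, and without 0.5 kPa library 1 it was 0.027 (0.043 against 4 kPa). TNC (tenascin-C) was low, at 4.81 ± 0.207 CPM on 0.5 kPa, against 3.82 ± 1.02 CPM on 25 kPa (0.33, adjusted p = 0.28).

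Among the fibrillin and fibulins, FBLN1 alone was called. FBLN1 (ENSG00000077942, chromosome 22 from 45502238 to 45601135) encodes fibulin-1, which binds fibronectin and laminin. It was at 108, 106 and 112 CPM on 0.5 kPa, 77.0, 82.1 and 88.5 CPM on 4 kPa, and 83.8, 73.2 and 75.1 CPM on 25 kPa. All 0.5 kPa libraries were above all others, and 4 and 25 kPa overlapped. FBLN1 was 1.41-fold higher on 0.5 kPa than on 25 kPa (log2 fold change 0.49, SE 0.08, adjusted p = 0.0023 in edgeR) and also higher than on 4 kPa (0.40, SE 0.08, adjusted p = 0.015). The call against 4 kPa was lost without 0.5 kPa library 1 or 2 or without 4 kPa library 1 or 2 (adjusted p = 0.051 to 0.093). EFEMP1 (fibulin-3) was at 38.2, 40.1 and 48 CPM on 0.5 kPa, 42.6, 41.9 and 45 CPM on 4 kPa, and 39.5, 43.1 and 44.5 CPM on 25 kPa, with overlap in every comparison and a log2 fold change of -0.01 (SE 0.09) between the ends. FBN1, the main protein of microfibrils, averaged 58.2 ± 6.58 CPM on 0.5 kPa and 47.6 ± 6.11 CPM on 25 kPa (0.29, adjusted p = 0.34).

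Fibrillar collagens changed in 1 of 5 tested genes, the least abundant of them. COL3A1 (ENSG00000168542, chromosome 2 from 188974320 to 189012746), the chain of type III collagen, had 30, 37 and 23 counts on 0.5 kPa, 15, 13 and 10 counts on 4 kPa, and 6, 3 and 12 counts on 25 kPa. In CPM these were 1.46, 1.87 and 1.1 on 0.5 kPa, 0.75, 0.638 and 0.489 on 4 kPa, and 0.302, 0.152 and 0.582 on 25 kPa, so that 1 library of 25 kPa was at the floor. Its log2 fold change of 2.06 was the largest of the 45 genes but rests on these few counts (SE 0.39, adjusted p = 0.0076 in edgeR). COL5A1, a chain of type V collagen that starts fibrils, was the most abundant fibrillar chain at 30.7 FPKM. It was at 325, 371 and 310 CPM on 0.5 kPa, 410, 420 and 318 CPM on 4 kPa, and 303, 330 and 303 CPM on 25 kPa. The highest values of COL5A1 were those of 4 kPa libraries 1 and 2, while 4 kPa library 3 lay in the range of the other gels. No comparison of COL5A1 was called with all libraries (4 against 25 kPa 0.29, SE 0.10, adjusted p = 0.19). Without 4 kPa library 3 it was called against 25 kPa (adjusted p = 0.022) and against the midpoint of both other gels (adjusted p = 0.029).

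COL1A1 averaged 38.3 ± 2.4 CPM on 0.5 kPa, 41.0 ± 2.03 CPM on 4 kPa and 33.8 ± 1.52 CPM on 25 kPa. Its 25 kPa libraries were below all others, with a log2 fold change of 0.28 for 4 against 25 kPa (SE 0.08, adjusted p = 0.11 in edgeR). COL1A2 and COL5A2, the partner chains of COL1A1 and COL5A1, had log2 fold changes of 0.03 and -0.03 between the ends. The genes of COL3A1 and COL5A2 lie tail to tail with 19149 bases between them on chromosome 2, and COL5A2 averaged 4.04 ± 0.805 CPM on 0.5 kPa and 4.13 ± 0.608 CPM on 25 kPa.

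Of the network, beaded-filament and anchoring collagens, COL6A1, COL6A2 and COL7A1 were called higher on 0.5 kPa than on 25 kPa, and no chain of type IV was called. Type VI collagen forms beaded filaments at the border of basement membrane and stroma, and each unit joins an alpha 1, an alpha 2 and a larger chain. COL6A1 (ENSG00000142156, chromosome 21 from 45981737 to 46005050) was at 21.4, 25.9 and 28.2 CPM on 0.5 kPa, 16.3, 17.5 and 17.4 CPM on 4 kPa, and 13.6, 13.1 and 15.2 CPM on 25 kPa. The gels followed each other without overlap from softest to stiffest. COL6A1 was 1.80-fold higher on 0.5 kPa than on 25 kPa (log2 fold change 0.85, SE 0.11, adjusted p = 0.00049 in edgeR) and higher than on 4 kPa (0.56, SE 0.11, adjusted p = 0.015). The call against 4 kPa was lost without 0.5 kPa library 2 or 3 or without 4 kPa library 1 or 2 (adjusted p = 0.056 to 0.078).

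COL6A2 (ENSG00000142173, chromosome 21 from 46098097 to 46132849), which lies 93046 bases downstream of COL6A1, was at 86.7, 93.9 and 102 CPM on 0.5 kPa, 67.4, 72.7 and 82.2 CPM on 4 kPa, and 73.2, 58.7 and 68.3 CPM on 25 kPa. It was 1.41-fold higher on 0.5 kPa than on 25 kPa (0.50, SE 0.10, adjusted p = 0.01 in edgeR), and without 25 kPa library 4 the adjusted p was 0.05 and the call was lost. Against 4 kPa the log2 fold change was 0.35 (adjusted p = 0.1), and without 4 kPa library 3 this was called (adjusted p = 0.024). COL6A3, the larger chain, was near the detection limit at 0.931 ± 0.284 CPM on 0.5 kPa, against 0.551 ± 0.211 CPM on 25 kPa (0.76, SE 0.36, adjusted p = 0.23). Per length COL6A1 was 0.187 to 0.278 of COL6A2 in all 9 libraries, and COL6A3 averaged 0.0361 FPKM against 3.51 FPKM for COL6A1 and 14.6 FPKM for COL6A2.

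COL7A1 (ENSG00000114270, chromosome 3 from 48564073 to 48595267) encodes the collagen of anchoring fibrils, which tie epithelia to the stroma. COL7A1 was at 53.0, 54.7 and 62.6 CPM on 0.5 kPa, 49.4, 46.7 and 54.9 CPM on 4 kPa, and 33.7, 35.8 and 35.5 CPM on 25 kPa. Here the stiffest gel stood apart and the softer gels overlapped. The level was 1.62-fold higher on 0.5 kPa than on 25 kPa (log2 fold change 0.70, SE 0.09, adjusted p = 0.00038 in edgeR) and higher on 4 kPa than on 25 kPa (0.52, SE 0.09, adjusted p = 0.018), and 0.5 and 4 kPa differed by 0.17 (adjusted p = 0.4). The call of 4 against 25 kPa was lost without any 1 of the 25 kPa libraries (adjusted p = 0.054 to 0.12).

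Of the type IV chains of the basement membrane network, COL4A1 and COL4A2 were abundant, COL4A5 was low and COL4A6 was not tested, and none of the 3 tested was called. COL4A2 was at 423, 486 and 510 CPM on 0.5 kPa, 423, 439 and 416 CPM on 4 kPa, and 406, 453 and 417 CPM on 25 kPa, with overlap in each comparison and a log2 fold change of 0.15 between the ends (SE 0.08, adjusted p = 0.28 in edgeR). COL4A1 averaged 306 ± 34.9 CPM on 0.5 kPa and 321 ± 13.9 CPM on 25 kPa (-0.07, adjusted p = 0.66). The chains are made from genes that point away from each other on chromosome 13 and share 1338 bases in GENCODE. The strand setting of the counting was not given in the sources used here. Their ratio in FPKM (COL4A1 over COL4A2) was 0.686, 0.660 and 0.713 on 0.5 kPa, 0.836, 0.795 and 0.807 on 4 kPa, and 0.804, 0.785 and 0.821 on 25 kPa. The ratio was thus lower in every 0.5 kPa library than in any other, although neither gene alone separated the gels. It was looked at after the values were seen and was not tested. COL4A5 (1.47 ± 0.117 CPM on 0.5 kPa and 1.22 ± 0.4 CPM on 25 kPa) and COL8A1 (56.4 ± 4.22 CPM and 53.4 ± 4.54 CPM) had adjusted p of 0.59 and 0.7.

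Of the fibril-associated, transmembrane and multiplexin collagens, 1 of 4 was called. COL17A1 (ENSG00000065618, chromosome 10 from 104031286 to 104086002) spans the membrane at hemidesmosomes of epithelial cells. It was at 9.29, 9.63 and 8.67 CPM on 0.5 kPa, 6.85, 6.92 and 5.62 CPM on 4 kPa, and 6.43, 6.45 and 5.33 CPM on 25 kPa. The 0.5 kPa libraries lay above all others. COL17A1 was 1.51-fold higher on 0.5 kPa than on 25 kPa (log2 fold change 0.60, SE 0.13, adjusted p = 0.014 in edgeR), and the call was lost without 0.5 kPa library 2 (adjusted p = 0.067) or 25 kPa library 4 (adjusted p = 0.09). COL18A1 was at 856, 899 and 864 CPM on 0.5 kPa, 822, 856 and 859 CPM on 4 kPa, and 837, 838 and 820 CPM on 25 kPa, a log2 fold change of 0.07 (SE 0.07, adjusted p = 0.57). COL12A1 averaged 906 ± 93.5 CPM on 0.5 kPa, 794 ± 274 CPM on 4 kPa and 769 ± 133 CPM on 25 kPa, where the wide spread on 4 kPa came from library 3 (480 CPM, against 981 and 921 CPM in libraries 1 and 2). COL16A1 was at 1.48 ± 0.65 CPM on 0.5 kPa, against 0.879 ± 0.151 CPM on 25 kPa (0.75, SE 0.34, adjusted p = 0.21).

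None of the 6 tested laminin genes was called in any comparison, and 1 of the nidogens was called. LAMC1, the gamma chain shared by most laminins, was the most abundant at 56.5 FPKM, with 441, 502 and 537 CPM on 0.5 kPa, 505, 495 and 370 CPM on 4 kPa, and 428, 521 and 477 CPM on 25 kPa. Its gels overlapped throughout (0.05 between the ends, SE 0.12, adjusted p = 0.83 in edgeR). LAMB1 came nearest to a call, with 144 ± 11.4 CPM on 0.5 kPa, 123 ± 9.14 CPM on 4 kPa and 119 ± 6.4 CPM on 25 kPa (0.28, SE 0.08, adjusted p = 0.056), and was called without 4 kPa library 3 (adjusted p = 0.019). LAMA3, LAMA5, LAMB2 and LAMB3 had log2 fold changes of 0.14, 0.03, 0.16 and 0.16 with adjusted p of 0.25 to 0.87.

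NID2 (ENSG00000087303, chromosome 14 from 52004803 to 52069228) encodes nidogen-2, which bridges laminin and type IV collagen. NID2 was at 43.5, 48.1 and 45.6 CPM on 0.5 kPa, 53.5, 56.0 and 41.4 CPM on 4 kPa, and 58.0, 72.8 and 60.3 CPM on 25 kPa. The 25 kPa libraries were the highest, and 4 kPa library 3 was the lowest of all 9. NID2 fell by 0.48 on the log2 scale on 0.5 kPa against 25 kPa (SE 0.11, adjusted p = 0.025 in edgeR). The call was lost without any single 0.5 kPa library or without 25 kPa library 3 or 4 (adjusted p = 0.064 to 0.097). NID1, its paralog, was low and had a value of the other sign, with 2.89 ± 0.655 CPM on 0.5 kPa and 2.28 ± 0.585 CPM on 25 kPa (0.34, SE 0.22, adjusted p = 0.39).

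Cell surface proteoglycans held 2 of the 4 genes that were lower on the softest gel. SDC2 (ENSG00000169439, chromosome 8 from 96493351 to 96611780) encodes syndecan-2, a transmembrane heparan sulfate proteoglycan. SDC2 was at 153, 156 and 141 CPM on 0.5 kPa, 186, 181 and 173 CPM on 4 kPa, and 208, 198 and 213 CPM on 25 kPa. The gels followed each other without overlap, from lowest on 0.5 kPa to highest on 25 kPa. SDC2 fell by 0.46 on the log2 scale on 0.5 kPa against 25 kPa (SE 0.07, adjusted p = 0.0014 in edgeR). The step from 0.5 to 4 kPa was -0.26 (adjusted p = 0.073, and 0.037 without 4 kPa library 3) and that from 4 to 25 kPa was -0.20 (adjusted p = 0.18), both given as softer minus stiffer.

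GPC1 (ENSG00000063660, chromosome 2 from 240435671 to 240468078) encodes glypican-1, which is held on the membrane by a lipid anchor. GPC1 was at 157, 159 and 130 CPM on 0.5 kPa, 170, 180 and 164 CPM on 4 kPa, and 196, 187 and 174 CPM on 25 kPa. It fell by 0.32 on the log2 scale on 0.5 kPa against 25 kPa (SE 0.09, adjusted p = 0.04 in edgeR). This call was lost without any 1 of 8 libraries (adjusted p = 0.056 to 0.13) and was kept only without 4 kPa library 3. SDC1 and SDC4, the other syndecans, did not separate the ends, with log2 fold changes of 0.02 and -0.03 (adjusted p = 0.91 and 0.89). SDC4 was at 203, 199 and 220 CPM on 0.5 kPa, 223, 223 and 274 CPM on 4 kPa, and 221, 201 and 212 CPM on 25 kPa, so that 4 kPa was highest without overlap (4 against 25 kPa 0.18, SE 0.09, adjusted p = 0.36). In FPKM the ratio of SDC2 to SDC1 was 0.830, 0.823 and 0.941 on 0.5 kPa, 1.1, 0.979 and 1.05 on 4 kPa, and 1.11, 1.22 and 1.29 on 25 kPa, again without overlap and not tested.

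Matrix proteoglycans had 1 call among the tested genes, on the other side. LUM (ENSG00000139329, chromosome 12 from 91102629 to 91111831) encodes lumican, a small leucine-rich proteoglycan that binds collagen fibrils. It was at 9.54, 10.7 and 8.81 CPM on 0.5 kPa, 7.00, 7.56 and 7.72 CPM on 4 kPa, and 7.39, 7.52 and 6.88 CPM on 25 kPa, with all 0.5 kPa libraries above the rest. LUM was 1.33-fold higher on 0.5 kPa than on 25 kPa (log2 fold change 0.41, SE 0.11, adjusted p = 0.046 in edgeR). The call was kept only without 0.5 kPa library 3 or 4 kPa library 3, and leaving out any of the other 7 gave adjusted p of 0.053 to 0.18. DCN, the neighbor of LUM on chromosome 12, was at 0 to 3 counts in each library. Perlecan (HSPG2), agrin (AGRN) and versican (VCAN) had log2 fold changes of -0.07, -0.05 and 0.01 between the ends, with adjusted p of 0.89, 0.73 and 0.98.

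CD44, the hyaluronan receptor, and the synthases HAS2 and HAS3 were not called. CD44 was at 420, 396 and 428 CPM on 0.5 kPa, 394, 406 and 384 CPM on 4 kPa, and 389, 392 and 394 CPM on 25 kPa. Its 0.5 and 25 kPa libraries did not overlap, but the log2 fold change was only 0.08 (SE 0.07, adjusted p = 0.49 in edgeR). HAS2 was low, at 1.05 ± 0.227 CPM on 0.5 kPa, 0.361 ± 0.0995 CPM on 4 kPa and 0.578 ± 0.219 CPM on 25 kPa. Against 4 kPa its log2 fold change was 1.52 (SE 0.37, adjusted p = 0.053), and against 25 kPa it was 0.85 (SE 0.34, adjusted p = 0.15). HAS3 averaged 30.8 ± 3.84, 30.5 ± 7.01 and 30.4 ± 1.99 CPM on 0.5, 4 and 25 kPa.

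The intermediate gel shares its libraries with both comparisons below, which are therefore not independent. Between 0.5 and 4 kPa, 3 of the 45 genes were called (6.67%; FN1, COL6A1 and FBLN1), against 2.05% of all genes, and all were higher on 0.5 kPa, against 0.924% of all genes. The median log2 fold change of the 45 genes was 0.07, against 0.01 for all genes. Without 4 kPa library 3 the count was 6, with THBS1 and SDC2 lower and COL6A2 higher on 0.5 kPa as the added calls, and 3.51% of all genes were called. Without 0.5 kPa library 2 or 4 kPa library 1 or 2 the count was 1, against 0.811 to 1.28% of all genes. Between 4 and 25 kPa, 1 gene was called (COL7A1, higher on 4 kPa), against 0.9% of all genes in either direction and 0.435% higher on 4 kPa, and the median was 0.05, against -0.01 for all genes. Without any 1 of the 25 kPa libraries the count was 0, against 0.15 to 0.479% of all genes, and without 4 kPa library 3 it was 2, with COL5A1 added, against 1.81% of all genes.

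Every one of the 12 genes called between the ends had its mean 4 kPa level between those of 0.5 and 25 kPa. The share of all called genes with such a level was not computed. For THBS1 this rests on 4 kPa library 3 (1727 CPM). Its 4 kPa libraries 1 and 2 (2414 and 2332 CPM) were above the 25 kPa mean (2225 CPM). The 4 kPa level lay nearer to 25 kPa in 10 of the 12, compared with 58.7% of all genes called between the ends. On the log2 scale FN1 had covered 73.9% of the way from the 0.5 kPa to the 25 kPa level at 4 kPa, FBLN1 81.0% and THBS1 91.0%. The exceptions were COL7A1 (24.9%) and NID2 (28.8%), which were nearer to 0.5 kPa. For NID2 the value includes 4 kPa library 3 (41.4 CPM, against 53.5 and 56.0 CPM in libraries 1 and 2). Its position without that library was not computed. When the 4 kPa level was tested against the midpoint of both other gels in edgeR, 0 of 45 genes were called, against 0.637% of all genes, and DESeq2 also called 0. At an unadjusted p under 0.05 there were 9 of 45 genes, against 11.2% of all genes.

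The genes of this list are long, and long genes varied between libraries of the same gel. The median length of the tested members, as the deposited FPKM values imply it, was 8190 bases, against 4508 bases for all genes tested. Genes over 12000 bases lay a median of 0.17 below the gel mean on the log2 scale (a deviation of -0.17) in 4 kPa library 3, -0.09 in 25 kPa library 2, and above it by 0.11 in 4 kPa library 1 and 0.09 in 25 kPa library 3. In 4 kPa library 3, COL12A1 (-0.66), VCAN (-0.64), HSPG2 (-0.59) and FBN1 (-0.46) lay further below their gel mean than this median, while FN1 was at -0.21. With the length trend of each library entered as an offset, 14 of the 45 genes were called between 0.5 and 25 kPa (10 higher and 4 lower), 7 between 0.5 and 4 kPa and 1 between 4 and 25 kPa, against 8.37%, 3.12% and 1.38% of all genes in the same fits. This offset was added after the data were seen. FN1, COL6A1, COL7A1 and SDC2 were called between the ends in each of the 22 alternative settings run.

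**Figure D4:**
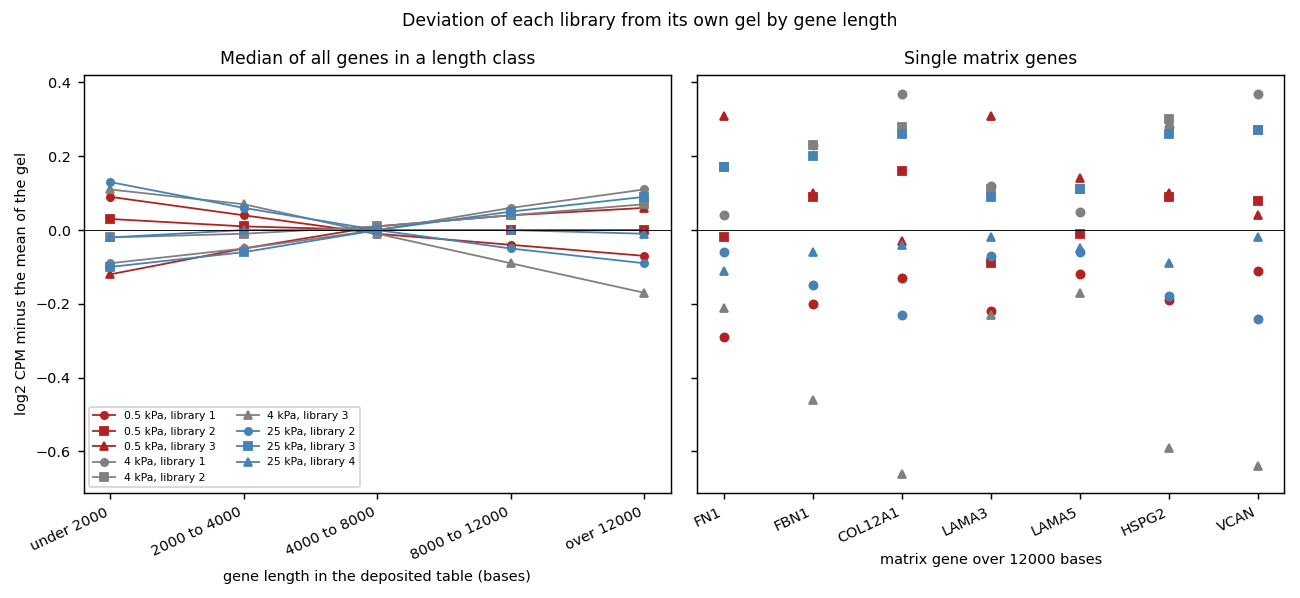
Deviation of each library from the mean of its own gel (log2 CPM), left as the median of all genes in 5 length classes and right for the 7 matrix genes over 12000 bases with a mean of at least 5 CPM. Colors mark the gels and shapes the libraries. The lowest points are those of 4 kPa library 3, at -0.17 for the longest class and -0.66 for COL12A1.

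For context, 8 lists of other matrix genes, also chosen with earlier results of these data known, were counted, with 148 tested genes. Between 0.5 and 25 kPa, 14 of these were higher and 14 lower on 0.5 kPa (18.9% in all, against 6.69% of all genes). Between 0.5 and 4 kPa 1 was higher and 6 lower (4.73%, against 2.05% of all genes). Between 4 and 25 kPa 2 were higher and 2 lower on 4 kPa (2.7%, against 0.9% of all genes). Among other collagens, 2 of 10 tested were higher on 0.5 kPa than on 25 kPa and 1 was lower. COL27A1, a fibrillar collagen of cartilage, averaged 13.0 ± 1.32 CPM on 0.5 kPa and 7.33 ± 1.01 CPM on 25 kPa (log2 fold change 0.83, adjusted p = 0.0013 in edgeR). COL23A1, a transmembrane collagen, averaged 8.02 ± 1.53 CPM on 0.5 kPa and 3.97 ± 0.0522 CPM on 25 kPa (1.01, adjusted p = 0.0014), whereas COL4A4 of the kidney and cochlear basement membrane was lower on 0.5 kPa (18.6 ± 3.05 CPM on 0.5 kPa and 25.7 ± 3.19 CPM on 25 kPa, adjusted p = 0.038). Of 6 other laminins and netrins tested, LAMA4 was higher on 0.5 kPa (1.93 ± 0.16 CPM on 0.5 kPa and 0.813 ± 0.0951 CPM on 25 kPa, adjusted p = 0.024). Medians of the lists were between -0.14 (hyaluronan turnover) and 0.29 (other collagens), against -0.00 for all genes.

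Other matrix glycoproteins had 8 genes higher and 6 lower of 43 tested between 0.5 and 25 kPa. LTBP1 and LTBP3, which store latent TGF-beta in the matrix, were both higher on 0.5 kPa. LTBP3 averaged 82.4 ± 2.94 CPM on 0.5 kPa and 51.1 ± 3.59 CPM on 25 kPa (log2 fold change 0.69, adjusted p = 0.00018 in edgeR), and LTBP1 averaged 65.4 ± 2.95 CPM on 0.5 kPa and 39.4 ± 1.93 CPM on 25 kPa (0.73, adjusted p = 0.00024). TINAGL1, a basement membrane glycoprotein, was lower, at 47.5 ± 4.38 CPM on 0.5 kPa, against 93.2 ± 7.22 CPM on 25 kPa (-0.97, adjusted p = 5.9e-05), as was MFAP5 of the microfibrils (-0.74, adjusted p = 0.0002). Serglycin (SRGN), an intracellular granule proteoglycan, was the only call among 11 tested other proteoglycans and was lower in every step. It averaged 65.6 ± 2.37 CPM on 0.5 kPa, 88.9 ± 3.63 CPM on 4 kPa and 111 ± 3.48 CPM on 25 kPa (0.5 against 25 kPa -0.75, adjusted p = 3.7e-05).

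Of 78 tested enzymes, binding proteins and receptors in the same lists, 9 were called between 0.5 and 25 kPa (11.5%), against 6.69% of all genes. Of 25 tested genes of collagen folding, secretion and propeptide removal 2 were lower on 0.5 kPa. These were the prolyl 3-hydroxylase P3H2 (90.3 ± 2.01 CPM on 0.5 kPa and 116 ± 2.27 CPM on 25 kPa, log2 fold change -0.36, adjusted p = 0.0052 in edgeR) and the vesicle coat protein SEC23A (-0.32, adjusted p = 0.041). Of 34 genes of sulfated sugar chains, CHPF, a chondroitin chain polymerizing factor, was higher on 0.5 kPa (0.45, adjusted p = 0.014). In the same list NDST1, which sulfates heparan chains, was lower (281 ± 3.97 CPM on 0.5 kPa and 351 ± 19.5 CPM on 25 kPa, adjusted p = 0.025), as was the heparanase HPSE (-0.42, adjusted p = 0.03). In the hyaluronan list HYAL3 (-0.51, adjusted p = 0.011) and HMMR (-0.42, adjusted p = 0.04) were lower on 0.5 kPa among 8 tested genes. Of 11 tested matrix receptors other than integrins, 2 were higher on 0.5 kPa, the collagen receptors MRC2 (194 ± 7.87 CPM on 0.5 kPa and 145 ± 6.46 CPM on 25 kPa, 0.42, adjusted p = 0.0028) and DDR1 (93.9 ± 2.61 CPM on 0.5 kPa and 71.4 ± 1.76 CPM on 25 kPa, 0.40, adjusted p = 0.0041).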

How the data were processed

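Poly(A) RNA of 9 libraries was sequenced, 3 per gel. Per the submitters' processing notes, reads were aligned with HISAT2 2.1.0 to hg38. The authors deposited a table of raw counts for each gene and 1 of FPKM values, and each FPKM value followed from its count, the column total and a fixed gene length. The sources used here name no counting program, annotation or strand setting, and the library kits named in the labels and the paper differ. Transcript-level tables and 3 columns per table that match no sample were not used. In R 4.3.3, edgeR 4.0.16 (filterByExpr, TMM, quasi-likelihood fit of all 9 libraries, gel as the only term) tested the gels on the counts, and members are rows of that fit. Alternatives used DESeq2 1.42.0, limma 3.58.1 on log2(FPKM + 1) or log2(FPKM + 0.1), other scalings and filters, a replicate block and omitted libraries. Gene coordinates are those of GENCODE on hg38. The fit was tested on simulated data. Members, role groups and lists were chosen with earlier results of these data known. Named genes are every member called in a comparison, the most abundant uncalled member of each role, and at most 4 called genes per other list and comparison. Other uncalled members with values in the text were chosen after their values were seen. Figures used Python 3.11.15, pandas 2.3.3 and matplotlib 3.10.9.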

Additional observations from a re-analysis of the deposited data

How the results depend on the processing

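No called gene changed direction in any alternative. Between 0.5 and 25 kPa, FN1, COL6A1, COL7A1 and SDC2 were called in all 22 alternatives, FBLN1 in 21, COL6A2 in 19, COL17A1 in 18, NID2 in 13, THBS1 in 12, LUM in 10 and GPC1 in 9, and COL3A1 in 18 of the 19 that tested it. The cause of the changes below was not tested. Leaving out single libraries gave 6 to 15 called members for 0.5 against 25 kPa, 1 to 6 for 0.5 against 4 kPa, 0 to 2 for 4 against 25 kPa and 0 to 1 for the midpoint, and 367 to 1966, 135 to 584, 25 to 302 and 37 to 184 genes among all genes. In this order of comparisons, members and all genes moved by over 1.5 times as follows. With the replicate block, 5 members and 215 genes were called between 0.5 and 25 kPa, 146 genes between 0.5 and 4 kPa, 0 members and 16 genes between 4 and 25 kPa, and 24 genes at the midpoint. Deviations of same-numbered libraries correlated at -0.57 to 0.35. These correlations cannot decide whether a number marks a shared culture or day, which no source states. Without a count filter, 34966 genes and 48 members were tested. For 0.5 against 4 kPa that fit called 9 members and 684 genes (1.96% of all genes). It called 3 and 479 (1.37%) for 4 against 25 kPa, and 1 and 280 (0.801%) at the midpoint. Limma on FPKM without a filter also tested 34966 genes and 48 members. It called 5 members and 267 genes, 0 and 134, 0 and 30, and 32 genes at the midpoint. With limma above 1 FPKM, pseudocounts of 1 and 0.1 gave 708 and 694 genes, 48 and 52 (4 against 25 kPa), and 68 and 64 (midpoint). DESeq2 gave 6 members for 0.5 against 4 kPa (12.5% of those it tested, against 1.39% of all genes). It gave 380 genes for 4 against 25 kPa and 196 at the midpoint. Fitting only the 6 libraries compared gave 191 genes (0.5 against 4 kPa) and 41 (4 against 25 kPa). At adjusted p under 0.01 there were 6 members and 342 genes, 1 and 142, 0 and 23, and 33 genes at the midpoint. Upper-quartile scaling gave 620 higher and 432 lower genes for 0.5 against 25 kPa and 97 genes for 4 against 25 kPa (69 higher, 28 lower), and DESeq2 split its 380 genes into 135 higher and 245 lower. Of the alternatives added after seeing the data, leaving out 0.5 and 4 kPa library 3 gave 1936 genes, then 10 members and 895 genes, 6 and 1119, and 4 and 558. Leaving out 4 kPa library 3 and 25 kPa library 2 gave 8 members and 731 genes (0.5 against 4 kPa), 2 and 266, and 1 and 235. The length offset gave 7 members and 509 genes (0.5 against 4 kPa), 225 genes (4 against 25 kPa) and 160 (midpoint). Depth limits COL3A1, COL6A3, COL4A5, COL16A1 and HAS2, all under 2 CPM on average.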
